A study of Mus musculus with 18 samples.

Results

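The genes described here are those of the cytosolic ribosomal proteins, the protein parts of the ribosomes that translate nuclear-encoded mRNAs. They were taken from the table of counts by symbol, as Rpl or Rps followed by digits and at most 1 of the letters a, l or x, with Rplp0, Rplp1, Rplp2 and Rpsa added and Rps27a left out, and with a summed count of at least 180 over the 18 libraries. Of 23420 rows, 79 matched by symbol and 75 reached the minimum, 45 of the large subunit (Rpl and Rplp) and 30 of the small subunit (Rps and Rpsa). The 4 below it were Rpl26 and Rpl10l with no count, Rpl3l with 10 and Rpl30 with 138. The members just above it were Rps27 with a summed count of 884 and Rpl34 with 896, and the next lowest was Rpl29 with 6195. All 75 members passed the filter on low counts, which left 11762 genes for testing.

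Each ribosome holds a single copy of nearly every ribosomal protein, and cells make these proteins in matched amounts. Most of their mRNAs begin with a C followed by a run of pyrimidines, the 5' terminal oligopyrimidine (TOP) tract, through which the kinase mTORC1 and the RNA-binding protein LARP1 set their translation and stability. Ribosomal proteins that are made in excess of the ribosomal RNA are degraded by the proteasome, the protease that carfilzomib (CFZ) blocks. Nrf1, encoded by Nfe2l1, is the transcription factor that raises proteasome gene expression when the proteasome is inhibited.

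RNA was sequenced from NIH-3T3 cells, an established line of mouse embryonic fibroblasts, as wild-type (WT) cells and as a line in which Nrf1 had been knocked out by CRISPR/Cas9 (Nrf1KO). In both lines the cells received the vehicle DMSO, CFZ at 200 nM for 6 h, or CFZ at 200 nM for 24 h, with 3 biological replicates in each of the 6 groups. The time for DMSO, the number of Nrf1KO clones and the way in which the replicate cultures were kept apart are not given in the sources used here, so p-values measure the spread between these samples. The design compares CFZ with DMSO in each line, the lines with each other in each treatment, and the responses of the lines with each other by the interaction of genotype and CFZ.

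Total counts per library ranged from 8333148 to 23917081. Levels are given as CPM, counts relative to the library size after TMM scaling, and a gene was called higher or lower in edgeR's quasi-likelihood test when its Benjamini-Hochberg adjusted p-value over all 11762 genes was under 0.05, with no minimum fold change. Nfe2l1, the targeted gene, was at 448 ± 9.87 CPM in WT DMSO and at 180 ± 5.27 CPM in Nrf1KO DMSO (SD, n = 3), a log2 fold change of -1.31. Its mRNA was lower in Nrf1KO but present, and it rose to 419 ± 7.19 CPM there at 6 h of CFZ (log2 1.22). All 10 fibroblast markers examined were detected, and their summed level ran from 36200 to 39100 CPM in WT DMSO, from 29400 to 35600 CPM in Nrf1KO DMSO, from 8730 to 9040 CPM in WT at 24 h and from 11400 to 13500 CPM in Nrf1KO at 24 h. Markers of other cell types summed to at most 13.0 CPM (epithelial), 5.82 CPM (immune), 3.83 CPM (endothelial) and 2.47 CPM (muscle or fat) in any library, with Epcam, Krt18, Cd3e and Pparg at 0 in every library of WT DMSO. At 24 h 10 markers were called lower and 0 higher in WT, against 40.5% and 43.2% of all genes. In Nrf1KO 8 were lower and 1 higher, against 41.1% and 44.4%. The fall of the summed fibroblast markers at 24 h went with the rise of the ribosomal protein genes, and its part in that rise was not tested. In bulk RNA, fewer cells of a kind and less RNA per cell cannot be told apart.

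TOP tracts were looked for because they are the feature that these mRNAs share. In RefSeq promoter windows on GRCm38, which were found for 57 of the 75 members, a C followed by at least 5 pyrimidines lay within 10 bases of the annotated start of 33 members (57.9%), against 21.9% of 27025 genes. At the start of the GENCODE M21 transcripts it was found in 23 of 75 members (30.7%), against 10.2% of 10762 tested genes. The searches differ in the annotation, the window (bases on both sides of the start for RefSeq, after it for GENCODE) and the members covered. They also differ in the genes compared with, all 27025 with a RefSeq window, tested or not, and tested genes alone for GENCODE. A missing tract says only that these letters are not in that window. The following 7 members had the tract at the annotated base 1 of the GENCODE transcript and a first exon of at least 24 bases. They are not all the members with such a tract. The opening 24 bases are shown 5' to 3' with the tract in capitals.
Rpl4 (chr9:64173375-64173398, plus strand): CTTTTCCTgtgggagcagccgggt
Rpl32 (chr6:115808724-115808747, minus strand): CTTCCTTCTTCCTCggcgctgcct
Rpl36 (chr17:56613416-56613439, plus strand): CTTCCTgtcccggccgccatcgga
Rpl37 (chr15:5116645-5116668, plus strand): CTCTTCCggtctctttggcctcgc
Rpl37a (chr1:72711290-72711313, plus strand): CTCTTCggacttgggcttgggttc
Rps21 (chr2:180257377-180257400, plus strand): CCCTCCTgcccaatagtgctgcgg
Rps24 (chr14:24490718-24490741, plus strand): CTCTTTTCCTCCTCTCCagctccg
The tract ran over 6 bases in Rpl36 and Rpl37a, 7 in Rpl37 and Rps21, 8 in Rpl4, 14 in Rpl32 and 17 in Rps24. The promoter windows of 250 bases before to 50 after the start were searched on both strands, beside the same 27025 genes, tested or not. The GABP site CCGGAAG was present in 42.1% of members and 9.9% of genes and the YY1 site AAGATGGC in 8.8% and 3.2%. The TATA box TATAAA was present in 10.5% and 15.7%, and the core TGACNNNGC of the antioxidant response element in 19.3% and 14.0%.

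The members took 5.81 ± 0.15% of all counts in WT DMSO, 5.58 ± 0.076% at 6 h of CFZ and 6.64 ± 0.072% at 24 h (SD, n = 3). In Nrf1KO they took 5.56 ± 0.066% in DMSO, 5.15 ± 0.13% at 6 h and 7.54 ± 0.55% at 24 h. At 24 h the share lay above that of DMSO in every library of both lines, with 6.56 to 6.69% against 5.71 to 5.98% in WT and 6.98 to 8.08% against 5.49 to 5.62% in Nrf1KO. The libraries of Nrf1KO at 24 h differed among themselves more than those of any other group, and the lowest of them was still above the highest WT library. Counts on the large subunit rose from 3.50 ± 0.081% to 4.07 ± 0.05% in WT and from 3.45 ± 0.044% to 4.66 ± 0.33% in Nrf1KO. Those on the small subunit rose from 2.31 ± 0.068% to 2.57 ± 0.022% and from 2.11 ± 0.021% to 2.88 ± 0.22%. This share uses no scaling factor, and it was not tested.

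**Figure D1:**
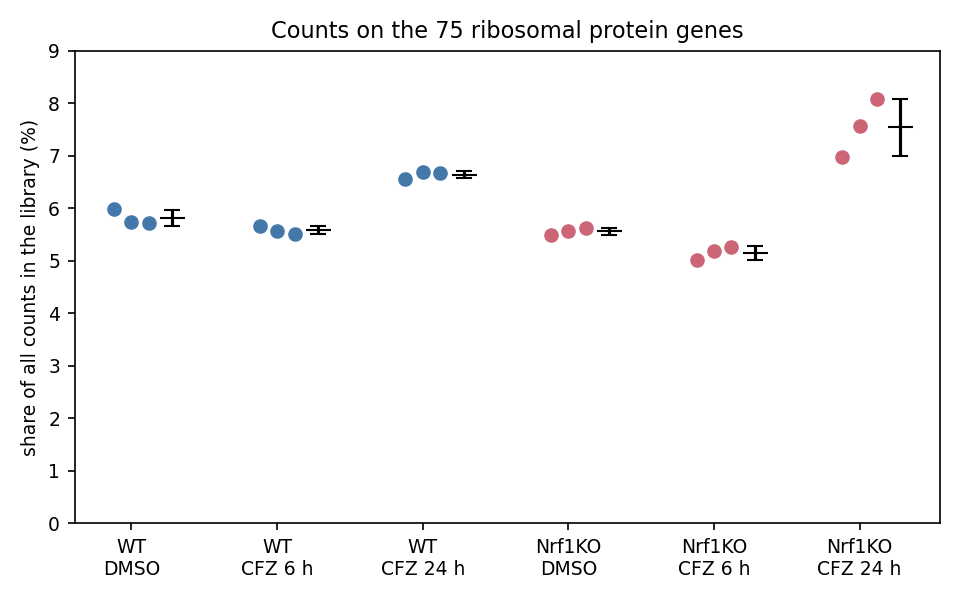
Share of all counts in a library that fell on the 75 ribosomal protein genes, in percent on an axis that starts at 0, by group. Dots are the 3 libraries of a group (blue WT, red Nrf1KO) and the black bar gives the mean and SD. The WT libraries at 24 h of CFZ sit between 6.56 and 6.69% and the Nrf1KO libraries at 24 h between 6.98 and 8.08%, above all other groups.

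After 24 h of CFZ most ribosomal protein genes were higher in WT cells by a small amount. Of the 75 members, 61 were called higher and 7 lower, while 43.2% of all genes tested were called higher and 40.5% lower. The median log2 fold change of the members was 0.27, or 1.21-fold, and that of all genes tested was 0.02. Under upper-quartile scaling the members' median was 0.13, with 43 higher and 10 lower, and under library size alone it was 0.17, with 46 and 8. Of all genes called, 43.3% and 45.3% were higher under these scalings, against 51.6% under TMM. Relative to all genes the median was between 0.21 and 0.25 in every setting tried. Libraries of the 2 groups did not overlap for 67 members. Genes without overlap were not counted over all genes tested, in this or any other comparison. Such counts therefore describe the members alone and do not set them apart from other genes. Both subunits took part, with 36 higher and 4 lower of 45 in the large subunit and 25 higher and 3 lower of 30 in the small subunit. From 6 h to 24 h, 53 members were called higher (36.9% of all genes) and 6 lower (35.4%), and 65 did not overlap. These 6 were Rps2, Rpl41, Rps27l, Rpl37a, Rpl36a and Rps26.

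Of the stalk, the flexible arm of the large subunit that recruits translation factors, Rplp2 and Rplp0 were above the members' upper quartile of 0.42 and Rplp1 was below their lower quartile of 0.14. Rplp2, an acidic stalk protein, was at 598, 591 and 585 CPM in WT DMSO and at 920.1, 925 and 920.0 CPM at 24 h. The groups were far apart, and the log2 fold change was 0.64 (SE 0.04, adjusted p = 1.1e-15). Rplp0, the stalk base, was at 2382, 2289 and 2322 CPM in DMSO and at 3255, 3340 and 3282 CPM at 24 h, which was 1.41-fold higher (adjusted p = 1e-12). Rplp1, which pairs with Rplp2, was at 1124, 1088 and 1058 CPM and at 1147, 1152 and 1189 CPM. Its log2 fold change was 0.09 (SE 0.042, adjusted p = 0.04), the smallest of the stalk, leaving out any of 12 single libraries took it above the threshold, and its value was -0.043 under upper-quartile scaling and -0.012 under library size alone.

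Of the 7 members called lower in WT at 24 h, 3 had a log2 fold change of -0.45 or lower and the others lay nearer to 0. Rps2, at the mRNA entry of the small subunit, was at 887, 841 and 826 CPM in DMSO and at 616, 584 and 634 CPM at 24 h, a log2 fold change of -0.48 (SE 0.039, adjusted p = 1e-12). Rpl41, the shortest ribosomal protein, was at 597, 541 and 521 CPM and then at 409, 399.8 and 404 CPM, a change of -0.45. Rps27l, a paralog of Rps27 known as a target of p53, was at 95.9, 86.7 and 80.3 CPM and then at 69.7, 60.4 and 64.3 CPM, also -0.45. In all 3 genes every 24 h library was below every DMSO library. The other members called lower, named after their values were seen apart from Rpl39, were Rpl37a (-0.19), Rpl39 (-0.17), Rpl36a (-0.15) and Rps26 (-0.10). The groups overlapped for Rpl39, whose call missed the threshold without WT DMSO replicate 1 or without WT 24 h replicate 2.

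In Nrf1KO cells nearly all members were higher after 24 h of CFZ, and by more than in WT. Calls were higher for 71 members and lower for 3, against 44.4% and 41.1% of all genes tested. The median log2 fold change was 0.57, or 1.49-fold, and that of all genes was 0.03. Groups did not overlap for 70 members. Here too, counts without overlap describe the members alone, with no share over all genes beside them. In the large subunit 43 of 45 were called higher and in the small subunit 28 of 30. Compared with 6 h, 72 members were higher (38.7% of all genes) and 3 lower (38.3%), and 74 did not overlap. Those 3, Rps2, Rps27l and Rpl34, were also the ones lower than in DMSO.

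The largest rises in Nrf1KO at 24 h were those of Rps27, Rps19 and Rpl12. Rps19, which matures the small subunit and is mutated in Diamond-Blackfan anaemia, was at 450.4, 435 and 401 CPM in Nrf1KO DMSO and at 859, 934 and 1007 CPM at 24 h. That was 2.18-fold (log2 1.12, SE 0.049, adjusted p = 5.9e-20). Rpl12, at the stalk base, was at 1032, 1030.0 and 1076 CPM and then at 1934, 2098 and 2338 CPM, 2.03-fold. In both genes each 24 h library was above each DMSO library by far more than the spread within a group. The same genes rose 1.54-fold and 1.44-fold in WT.

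**Figure D2:**
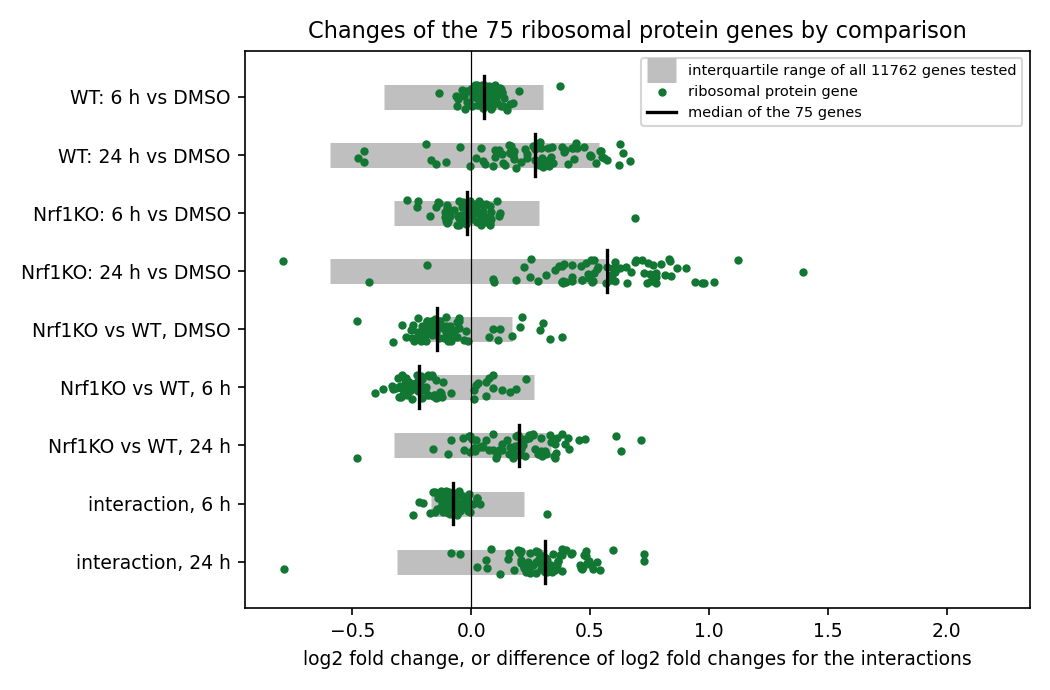
Log2 fold changes of the 75 ribosomal protein genes (green dots) in 9 comparisons, with their median (black line) and the interquartile range of all 11762 genes tested (grey bar). The x axis is in log2 units and, for the interactions, gives the change in Nrf1KO minus the change in WT. The median lies at 0.27 in WT and 0.57 in Nrf1KO at 24 h, and close to 0 at 6 h.

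The response at 24 h was therefore compared between the lines by the interaction, which gives the log2 fold change in Nrf1KO minus that in WT. It was called above 0 for 66 of the 75 members and below 0 for 1, when 29.7% and 30.0% of all genes were called in these directions. The median difference was 0.31, or 1.24-fold, and 0.005 over all genes tested. The changes themselves ran in a similar order in the lines, with a Pearson r of 0.79 and a Spearman rho of 0.80 across the 75 genes, against 0.83 and 0.81 across 11687 other genes. Genes are not independent replicates, and the genes within a line share its libraries.

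Rpl3, which lies near the peptidyl transferase centre, showed the clearest difference between the lines. In WT it was at 931, 899.9 and 904 CPM in DMSO and at 941, 954 and 934 CPM at 24 h. In Nrf1KO it was at 901, 903 and 903 CPM in DMSO and at 1441, 1518 and 1678 CPM at 24 h. The WT groups were close together and the Nrf1KO groups far apart, and the interaction was 0.73 (SE 0.056, adjusted p = 1.1e-12). Rps12, known from cell competition in flies, went from 1530 ± 71.2 to 1994 ± 18.8 CPM in WT and from 1288 ± 18.2 to 2537 ± 259 CPM in Nrf1KO, an interaction of 0.60 (SE 0.065). Rpl41, which fell in WT, was at 532, 498 and 485 CPM in Nrf1KO DMSO and at 515, 532 and 566 CPM at 24 h, where the groups overlapped and the change of 0.09 was not called. Its interaction was 0.54 (SE 0.063, adjusted p = 8.2e-09).

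Across the lines, 61 members were called higher at 24 h in both. Rps2 and Rps27l were lower in both, Rps27l by nearly the same amount (-0.45 and -0.43) and Rps2 by less in Nrf1KO (-0.48 and -0.18). Rpl37a, Rps26, Rpl39 and Rpl36a were lower in WT and higher in Nrf1KO, with interactions of 0.48, 0.46, 0.48 and 0.34. Rpl38, Rps29, Rpl3, Rps28, Rpl29 and Rpl10 were called higher in Nrf1KO and were not called in WT, of which Rpl29 (0.06 in WT, 0.25 in Nrf1KO) had no called interaction. The 8 members without a called interaction were Rpl7, Rpl27, Rpl39l, Rpl24, Rpl11, Rpl22, Rps27l and Rpl29. Members named in this paragraph outside the rule for named genes were chosen after their values were seen.

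**Figure D3:**
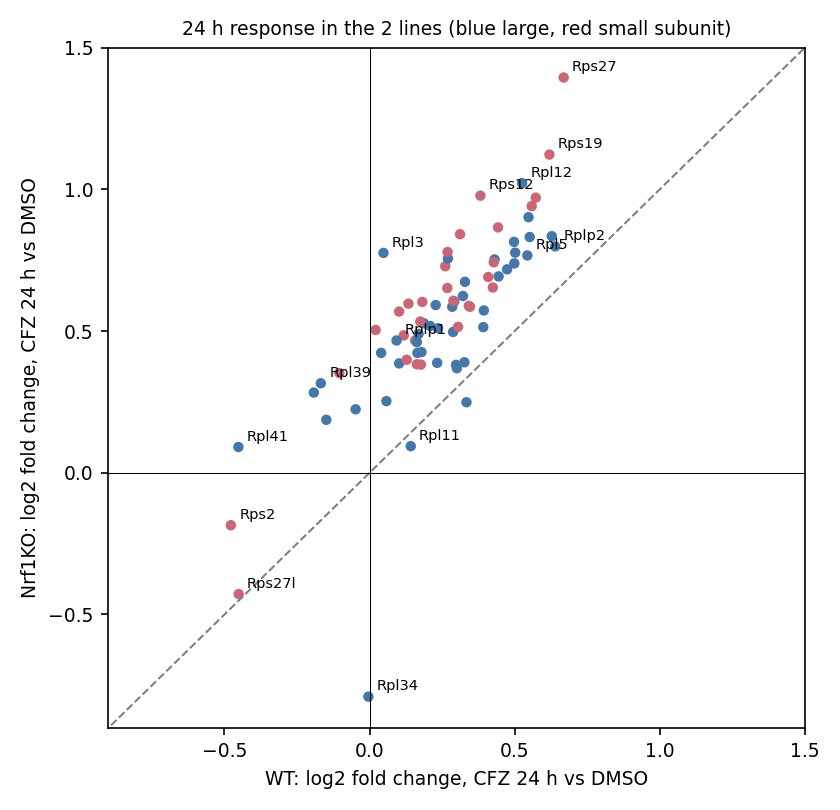
Log2 fold change at 24 h of CFZ against DMSO in WT (x axis) and in Nrf1KO (y axis) for the 75 ribosomal protein genes, blue for the large and red for the small subunit, with a dashed line where the values are equal. Most points lie above the line, Rpl11, Rpl34 and Rpl39l lie below it, and Rps27l lies close to it at -0.45 and -0.43.

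Rpl34 and Rps27 gave the widest values but were the least counted, with a mean of 49.8 and 49.1 reads per library. Rpl34 was at 2.79, 2.95 and 4.24 CPM in WT DMSO, 3.76, 3.42 and 2.79 CPM in WT at 24 h, 3.74, 4.07 and 4.20 CPM in Nrf1KO DMSO and 2.25, 2.27 and 2.47 CPM in Nrf1KO at 24 h. Between DMSO and 24 h only the Nrf1KO groups were apart, and at 24 h the lines were apart as well. The interaction was -0.79 (SE 0.24, adjusted p = 0.005), the only 1 called below 0. Rps27 went from 2.63 ± 0.689 to 3.98 ± 0.784 CPM in WT and from 1.73 ± 0.548 to 4.85 ± 0.302 CPM in Nrf1KO, with groups that overlapped in WT and not in Nrf1KO. Its rise in WT (0.67, adjusted p = 0.0036) missed the threshold without WT DMSO replicate 1, and its interaction (0.73, SE 0.29, adjusted p = 0.034) did so without any of 6 single libraries. For Rps27, 98.2% of the read-length stretches of its transcript also occur in transcripts of another gene, so its counts are uncertain. For Rpl34 this was 19.1%. Why Rpl34 was counted so little was not tested, and its counts are uncertain as well.

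After 6 h of CFZ the members had moved little, and in WT the direction depended on the scaling. In WT 17 were called higher and 1 lower, when 35.6% and 36.2% of all genes were called. Their median log2 fold change was 0.05, that of all genes was -0.02, and 26 members did not overlap. Overlap was again counted over the members alone. With upper-quartile scaling 1 member was higher and 13 lower, and with library size alone 0 and 29. Of all genes called in WT, 37.9% and 35.4% were higher under these 2 scalings, against 49.6% under TMM. In Nrf1KO 6 were called higher (34.5% of all genes) and 12 lower (35.0%), with a median of -0.02 and 28 without overlap. Under the 2 scalings the counts of calls became 1 and 30, and 1 and 52. Of all genes called there, 41.1% and 36.4% were higher, against 49.7% under TMM. The median in Nrf1KO was below 0 in every scaling, filter and tool tried, from -0.13 to -0.02. Taken relative to the median of all genes, the members' median lay between 0.02 and 0.07 in WT and between -0.04 and -0.01 in Nrf1KO over the scalings, filters and tools tried. At 6 h these 2 scalings shifted the median of all genes by -0.11 and -0.13 in WT and by -0.074 and -0.11 in Nrf1KO, and at 24 h by -0.14 and -0.10 in WT and by -0.11 and -0.18 in Nrf1KO.

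Among the members called at 6 h in WT, Rpl10a, a uL1 protein of the exit site, was at 558, 536 and 528 CPM in DMSO and at 630.4, 616 and 618 CPM at 6 h. It was 1.15-fold higher (log2 0.20, SE 0.037, adjusted p = 1.8e-05) with no overlap, and it was 1.09-fold higher in Nrf1KO, yet neither passed the threshold under library size alone. Rpl5 and Rpl4 were 1.13-fold and 1.12-fold higher in WT, and both calls were lost under upper-quartile scaling and library size alone. In Nrf1KO the members called lower included Rpl39l (-0.23), Rpl38 (-0.22), which is needed for translation of Hox mRNAs, and Rpl27 (-0.17).

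At 6 h the interaction was called below 0 for 4 members and above 0 for 0, against 18.4% and 19.8% of all genes. Above 0 there were also none at an unadjusted p under 0.05 in edgeR, and DESeq2 called 0. The 4 were Rpl39l (-0.22, SE 0.066), Rpl22 (-0.20, SE 0.052), Rpl11 (-0.18, SE 0.059) and, named after its value was seen, Rpl23a (-0.14, SE 0.053). Rpl22, which also binds RNA outside the ribosome, was at 418, 402 and 393 CPM in WT DMSO and at 449, 432 and 425 CPM at 6 h, whereas in Nrf1KO it was at 379, 381 and 380.4 CPM and then at 349, 361 and 358 CPM. The 6 h libraries were all above DMSO in WT and all below it in Nrf1KO. Between 2 and 27 members were called when single libraries were left out, 27 without Nrf1KO 24 h replicate 1, 22 without Nrf1KO 24 h replicate 3 and 16 without WT DMSO replicate 1.

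**Figure D4:**
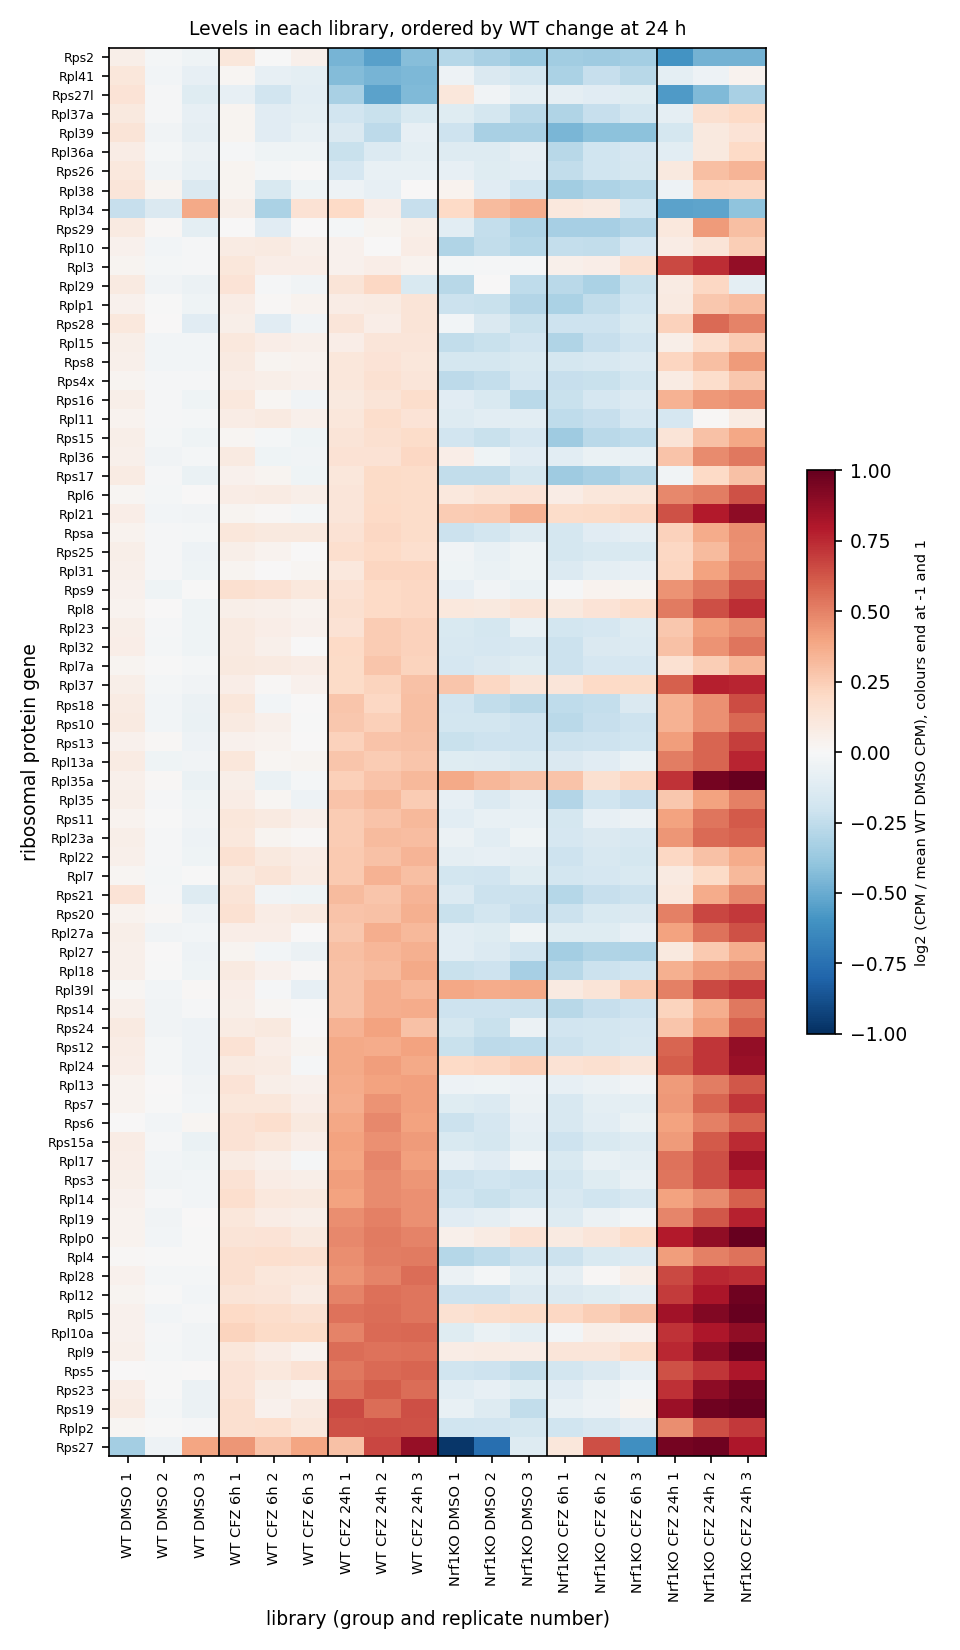
Level of 74 of the 75 ribosomal protein genes (rows) in each of the 18 libraries (columns), as log2 CPM minus the mean log2 CPM of the WT DMSO libraries. Rows are ordered by the WT change at 24 h, red is higher, blue is lower and the colours end at -1 and 1. The columns of Nrf1KO at 24 h are red for nearly all genes, Rps2, Rpl34 and Rps27l are blue there, and the columns of Nrf1KO in DMSO and at 6 h are pale blue for most.

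Without CFZ the members were slightly lower in Nrf1KO than in WT. In DMSO 46 were called lower and 8 higher, against 29.1% and 25.7% of all genes, with a median log2 difference of -0.14 (0.906-fold) and of -0.02 over all genes. Under library size alone the counts were 33 lower and 11 higher, and 57.7% of all genes called were higher, against 46.9% under TMM. With single libraries left out under TMM, 31 to 49 members were lower, the fewest without WT DMSO replicate 1. Groups did not overlap for 61 members, and this count and those below were taken over the members alone, without a share over all genes. At 6 h of CFZ 60 were lower and 5 higher (30.8% and 30.5% of all genes), with a median of -0.22 and 69 without overlap. At 24 h the order was turned, with 54 higher and 3 lower in Nrf1KO (35.6% and 36.4%), a median of 0.20 and 44 without overlap. The 3 were Rpl34, Rpl11 and Rpl7.

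Counts in DMSO were also taken by subunit, beside 29.1% of all genes called lower and 25.7% called higher. In the small subunit 23 of 30 were called lower and 0 higher (0 also at an unadjusted p under 0.05), and in the large subunit 23 of 45 were lower and 8 higher. No test of the subunits against each other was run. Those higher were Rpl39l, Rpl35a, Rpl21, Rpl24, Rpl37, Rpl5, Rpl6 and Rpl8, of which all but Rpl39l, Rpl35a, Rpl21 and Rpl5 were named after their values were seen. Rpl35a was at 128, 125.1 and 118 CPM in WT and at 161, 156 and 151 CPM in Nrf1KO DMSO, 1.26-fold higher (log2 0.33, SE 0.053, adjusted p = 4.4e-06). Rpl21 was 1.22-fold higher, from 924 ± 36.9 to 1129 ± 43 CPM. Rps2, the lowest of the called members, was at 699, 679 and 658 CPM in Nrf1KO against 887, 841 and 826 CPM in WT (log2 -0.33, adjusted p = 2e-08). Rpl39 was lower by a log2 value of -0.29 and Rpl10, which joins the large subunit late in its maturation, by -0.27, each with no overlap.

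The paralogs Rpl39l and Rpl39 were called in opposite directions in DMSO. Rpl39l, the paralog of Rpl39 best known from the testis, was at 107, 104 and 107 CPM in WT DMSO and at 139, 137 and 138 CPM in Nrf1KO DMSO, 1.30-fold higher (adjusted p = 1.6e-08), whereas Rpl39, which lines the exit tunnel, was 0.816-fold, from 191 ± 15.2 to 156 ± 7.42 CPM. At 24 h Rpl39l rose in WT (0.33) and in Nrf1KO (0.25), and Rpl39 fell in WT and rose in Nrf1KO (0.32). The difference of the pair was not tested. Rps4x, the X-linked copy of Rps4, rose by 0.13 in WT and 0.40 in Nrf1KO at 24 h, and the value in WT became -0.009 under upper-quartile scaling. Rpl10 changed by 0.04 in WT, which was not called, and rose by 0.42 in Nrf1KO.

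Several members have known roles outside the ribosome. Rpl5 and Rpl11 bind 5S ribosomal RNA together and hold back the p53 ligase MDM2 when ribosome assembly fails. Rpl5 was at 849, 811 and 819.5 CPM in WT DMSO and 1201, 1217 and 1198 CPM at 24 h, and at 917, 932 and 944.5 CPM in Nrf1KO DMSO and 1475, 1569 and 1710.0 CPM at 24 h. Rpl11 was at 542, 524 and 521 CPM and 572, 597 and 583 CPM in WT, and at 484, 492 and 493 CPM and 471, 533 and 561 CPM in Nrf1KO. Rpl5 thus rose by 0.54 and 0.77 with no overlap, while Rpl11 rose by 0.14 in WT and by 0.09 in Nrf1KO, where the groups overlapped. The call of Rpl11 in Nrf1KO (adjusted p = 0.037) was lost when any of 9 single libraries was left out, and its sign turned to -0.015 under upper-quartile scaling and to -0.09 under library size alone.

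Of the others, Rps6, the substrate of the mTORC1-dependent S6 kinases, rose 1.34-fold in WT and 1.57-fold in Nrf1KO at 24 h. Rps3, which also acts in DNA repair, rose 1.36-fold and 1.82-fold, with an interaction of 0.42 (SE 0.06). Rpl13a, a part of the interferon-gamma-activated inhibitor of translation, rose 1.21-fold and 1.69-fold, with an interaction of 0.49 (SE 0.062). Rps14, lost in the 5q- syndrome, rose 1.27-fold and 1.5-fold, and Rpsa, the laminin receptor precursor, 1.13-fold and 1.45-fold. Rpl22 rose 1.23-fold and 1.30-fold, and its interaction of 0.08 was not called. Rpl38 changed by -0.05 in WT, which was not called, and rose by 0.22 in Nrf1KO.

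Levels between members were compared per length of the GENCODE transcript. Over all 18 libraries the highest were Rps12 at 2941, Rplp1 at 2164 and Rplp0 at 2155 CPM per kilobase. The lowest were Rpl34 at 6.77, Rps27 at 9.35 and Rpl29 at 30.8 CPM per kilobase, although ribosomes hold these proteins in the same number as most others. For many members the annotated transcript is far longer than the coding part, such as Rps15a with 5179 and 390 bases and Rps20 with 3706 and 357. Their level per length depends on the transcript taken. The same holds for the transcript lengths and the percentages of shared stretches given below.

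The changes were also set against transcript length. The 13 members with transcripts under 500 bases had a median log2 fold change of 0.09 in WT at 24 h, with 6 called higher and 3 lower. The other 62 had a median of 0.30, with 55 higher and 4 lower. Of all genes tested, 43.2% were called higher and 40.5% lower there, and the 6 higher of 13 lie near the first share. In Nrf1KO at 24 h the medians were 0.46 and 0.60. Across the 75 members, Spearman's rho between transcript length and log2 fold change in WT was 0.58 at 6 h and 0.30 at 24 h, and in Nrf1KO 0.37 and 0.25. With coding length these were 0.61, 0.27, 0.59 and 0.30, and for 2801 other genes with transcripts under 2000 bases the values with transcript length were 0.15 and 0.12 in WT and 0.24 and 0.17 in Nrf1KO. The interaction at 24 h had a rho of -0.14 with transcript length and of -0.07 with coding length. These correlations describe genes within the same libraries, which share RNA quality and fragment size, and the part of these in the relation was not tested.

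**Figure D5:**
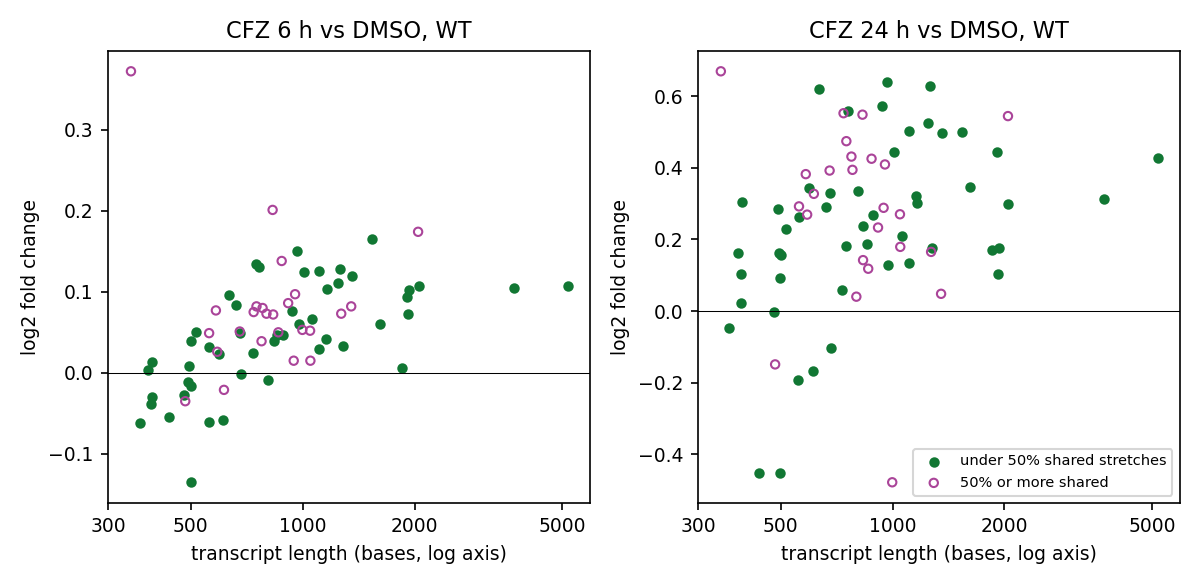
Log2 fold change in WT at 6 h (left) and 24 h (right) of CFZ against DMSO for the 75 ribosomal protein genes, by length of the GENCODE transcript in bases on a log axis. Filled dots have under 50% and open circles 50% or more of their read-length stretches in common with another gene. At 24 h members under 500 bases have a median of 0.09 and longer members of 0.30.

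Ribosomal protein genes have many processed pseudogenes, and reads from near-identical copies may have been split or dropped in the counting. Of the 75 members, 25 shared at least 50% of the read-length stretches of their transcript with another annotated gene and 9 shared none, with a median of 33.6%. Rps12 (80.7%), Rpl3 (74.9%), Rpl10a (75.1%), Rpl5 (89.7%), Rpl10 (91.3%), Rps6 (83.0%), Rps2 (58.0%), Rpl11 (54.9%), Rpl13a (54.0%) and Rpl23a (78.9%) are uncertain on this ground. So are Rps27, Rpl36a (82.45%), Rpl24 (78.3%), Rpl35 (75.43%), Rpl27 (58.57%) and Rpl6 (51.05%). Among the 50 members under 50% shared, 40 were higher and 5 lower in WT at 24 h, 47 and 2 in Nrf1KO, and 44 and 1 in the interaction. The counts of the other 25 were 21 and 2, 24 and 1, and 22 and 0. Of all genes tested, 43.2% and 40.5%, 44.4% and 41.1%, and 29.7% and 30.0% were called, in the same order. Exons of 11 members overlap exons of a gene on the opposite strand, by most in Rpl35 (68.3% of the transcript), Rpl23a (55.4%), Rps25 (52.2%) and Rpl5 (46.6%), and by 4.51% in Rpl12 and 6.14% in Rpl10a, and whether the counting used strand is not given in the sources used here.

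Genes close to the members by function were taken from lists. Among 8 ribosomal proteins and relatives with other symbols, 5 were called higher and 1 lower in WT at 24 h and 6 and 2 in Nrf1KO. Of all genes, 43.2% and 40.5% were called in WT and 44.4% and 41.1% in Nrf1KO. Fau, the fusion that carries S30, had an interaction of 0.49 and Rpl22l1, the paralog of Rpl22, of 0.60, while Rpl36al (-0.32) and Rpl7l1 (-0.35) went the other way. Of 20 other mRNAs listed as TOP mRNAs, 15 were higher and 5 lower in WT at 24 h (43.2% and 40.5% of all genes), and 17 and 1 in Nrf1KO (44.4% and 41.1%). Their interaction was called above 0 for 15 and below 0 for 0, against 29.7% and 30.0% of all genes, with a median of 0.29. Below 0 there were also 0 at an unadjusted p under 0.05 in edgeR, the only tool from which this list was summarised. The largest interactions were those of Npm1, a nucleolar chaperone, at 0.83 and Vim, a fibroblast marker as well, at 1.29.

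Mitochondrial ribosomal proteins belong to the ribosome of another compartment. Of 76 tested, 42 were higher and 21 lower in WT at 24 h (median 0.21), and 27 were higher and 38 lower in Nrf1KO (median -0.13). Their interaction was called above 0 for 2 (Mrpl45 and Mrps30, 0.18 and 0.17) and below 0 for 48, with a median of -0.28. Of all genes, 43.2% and 40.5% were called in WT, 44.4% and 41.1% in Nrf1KO, and 29.7% and 30.0% in the interaction. Mrpl51 had the lowest value, -1.43 (SE 0.08), with 57.4 ± 3.01 and 61.4 ± 1.22 CPM in WT and 56.5 ± 2.21 and 22.5 ± 2.46 CPM in Nrf1KO, in DMSO and at 24 h. Mrpl55 followed at -1.31. The difference between the families was not tested.

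Of 33 factors of ribosome assembly, 28 were already higher and 1 lower in WT at 6 h, with a median of 0.45, when the median of the members was 0.05 and 35.6% and 36.2% of all genes were called. At 24 h 25 were higher and 2 lower in WT (43.2% and 40.5% of all genes) and 26 and 5 in Nrf1KO (44.4% and 41.1%). Riok2, a kinase of late small-subunit maturation, rose by 1.53 and 1.41 on the log2 scale, and Ubtf, an activator of ribosomal RNA transcription, fell by 1.51 and 1.16. The interaction at 24 h was called above 0 for 10 and below 0 for 10, near the 29.7% and 30.0% of all genes, with Ipo7, an importin that carries ribosomal proteins, at 0.76 and Tsr2, the chaperone of Rps26, at -1.07.

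Among 22 regulators of TOP mRNAs, 11 were higher and 6 lower in WT at 24 h, and 11 and 7 in Nrf1KO, with interactions called above 0 for 5 and below 0 for 7. These stand beside 43.2% and 40.5%, 44.4% and 41.1%, and 29.7% and 30.0% of all genes in the same order, so that the counts of the list lie near those of genes at large. Ddit4, which restrains mTORC1, was at 77.8 ± 3.12 CPM in WT DMSO and at 48.0 ± 2.18 CPM at 24 h, and at 45.5 ± 1.8 and 160 ± 1.1 CPM in Nrf1KO, an interaction of 2.5. Sesn2, another inhibitor of mTORC1, had an interaction of 1.01, and Rptor, which encodes the mTORC1 subunit raptor, of -0.97. Rps6kb2, an S6 kinase, was at -0.47. These are mRNA levels and do not give the activity of mTORC1.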

How the data were processed

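The authors prepared stranded mRNA libraries, sequenced paired reads and ran RNA Express, for which the submitters' processing notes name STAR and DESeq2. They deposited raw counts per gene symbol. Genome build, annotation and the treatment of reads with several matches are not given in the sources used here.

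From the deposited counts, edgeR 4.0.16 in R 4.3.3 was run with its low-count filter (minimum count 10, minimum total 15), TMM scaling and a quasi-likelihood model of the 6 groups over 18 libraries. The common biological coefficient of variation was 3.13%. All 11762 genes entered the fit and the adjustment. The standard error is the log2 fold change divided by the square root of F. Transcripts and coordinates came from GENCODE M21 on GRCm38, and promoter windows from RefSeq (GRCm38.p6). The scripts were tested on simulated data in which few genes changed, unlike the data here, so that test does not bear on the choice of scaling. Alternatives were DESeq2 1.42.0, other scalings and filters, a fit of the compared groups only, a replicate block, each library left out and, added after seeing the data, coding length and the members with under 50% shared stretches (stretches as long as a read).

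The members and lists were chosen with earlier results of these data known. The genes named are the stalk proteins and Rpsa, the 3 called members with the largest changes in each direction in the main comparisons, paralog pairs, the 3 highest and lowest per length, 9 members of known role, and in each list the 2 most changed in each direction in the comparison spoken of. A member that this rule names is not reported here by name.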

Additional observations from a re-analysis of the deposited data

Results flagged for a closer look

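The following results were flagged because the lines responded differently to CFZ in edgeR's test of the interaction itself. At 6 h the interaction was called below 0 for 4 of the 75 members, a smaller share than the 18.4% of all genes. This count ran from 2 to 27 with single libraries left out. Among the 4 were Rpl39l at -0.22, Rpl22 at -0.20 and Rpl11 at -0.18. At 24 h it was called above 0 for 66 members, with Rpl3 at 0.73, Rps27 at 0.73 and Rps12 at 0.60, and below 0 for 1, Rpl34, at -0.79. Of all genes, 29.7% and 30.0% were called in these directions. Rps27 and Rpl34 rest on about 50 reads per library.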

How the results depend on the processing

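The counts of members called higher in WT at 24 h, in Nrf1KO at 24 h and in the interaction at 24 h ranged over 59 to 61, 69 to 71 and 63 to 70 with single libraries left out. Under upper-quartile scaling they were 43, 67 and 67 and under library size alone 46, 65 and 59. Of all genes called, 43.3%, 45.7% and 53.1% were higher under the first and 45.3%, 41.6% and 40.0% under the second. Under TMM these shares were 51.6%, 52.0% and 49.8%. Other counts moved more, and the cause was not tested. In WT at 6 h, 1 (upper quartile), 0 (library size alone), 8 (TMM without the members) and 34 (compared groups alone) were higher and 12 to 34 with single libraries left out, and 13, 29, 2 and, with no filter, 4 were lower, and 0 to 1. The medians were -0.057 and -0.08 under the first 2 scalings. In Nrf1KO at 6 h, 1 (upper quartile), 1 (library size alone), 2 (TMM without the members), 2 (DESeq2) and 1 (no filter) were higher and 2 to 10 with single libraries left out, and 30, 52 and, with no filter, 29 were lower, and 5 to 19. Its median ranged from -0.039 to 0.005 with single libraries left out, the latter without Nrf1KO 6 h replicate 1. From 6 h to 24 h in WT 3 were lower under library size alone, TMM without the members and DESeq2, and 3 to 9 with single libraries left out. In Nrf1KO at 24 h 5, and in the interaction at 24 h 2, were lower under library size alone. Higher in Nrf1KO than in WT at 6 h were 8 (upper quartile), 9 (library size alone) and 8 (compared groups alone), and 3 to 6, and lower at 24 h were 1 to 4. In the interaction at 6 h 2 (upper quartile), 14 (no filter) and 12 (compared groups alone) were below 0, and 2 to 27. Counts at 6 h moved by over 1.5 times without WT DMSO replicate 1 (31 higher in WT), Nrf1KO 24 h replicate 1 (34) or 3 (33), and in Nrf1KO without 6 h replicate 1 (10 higher, 5 lower) or 2 (7 lower) or 24 h replicate 1 (19 lower).

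Under upper-quartile scaling and library size alone, Rpl11 in Nrf1KO at 24 h was -0.015 and -0.09, Rplp1 in WT at 24 h -0.043 and -0.012, and Rpl22 and Rpsa in WT at 6 h -0.002 and -0.025, and -0.007 and -0.03. Rps4x in WT at 24 h was -0.009 under the upper quartile. Under library size alone at 6 h, Rpl12 and Rplp0 in WT were -0.021 and -0.012, and Rpl3 and Rpl4 in Nrf1KO -0.004 and -0.031.

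The summed share, in the order WT DMSO, 6 h, 24 h and the same in Nrf1KO, was 6.18, 5.99, 7.06, 5.88, 5.56 and 8.19% without the 10 highest other genes in the total, and 4.81, 4.59, 5.43, 4.62, 4.25 and 6.19% without the 5 highest members. The replicate block gave 8 members below 0 in the interaction at 6 h. It moved no other count of calls by over 1.5 times. Same-numbered libraries did not pair, with a mean correlation of 0.0195 over 45 pairs, of which 4 were over 0.1. Rpl34 and Rps27 had the lowest counts of the members in the same libraries, and the part of counting or annotation in this was not tested.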
